A study of Oryza sativa with 4 samples.

Results

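The genes described here encode glutathione transferases and a 1-Cys peroxiredoxin of rice, and they were followed in coleoptiles, the sheath that encloses the young shoot of a cereal, from seeds germinated without oxygen or in air. They were chosen by name: every gene whose symbol or synonym in the RefSeq gene table was GSTU, GSTF or GSTZ followed by a number, or R1C-Prx. This gave 7 genes, of 17905 that the array reads with a probe set of 1 gene only: GSTU1 (LOC4334347), GSTU6 (LOC4349207), GSTF2 (LOC4326887), GSTF1 (LOC4325710), GSTZ3 (LOC4329692), GSTZ5 (LOC4332455) and R1C-Prx (LOC4344045). They have 9 probe sets between them, and all 9 are given below. The set was picked with the difference between anoxic and aerobic coleoptiles already known, so their differences are a description with no test, and nothing is supported with them.

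Glutathione transferases join the tripeptide glutathione to reactive or toxic compounds, after which the conjugates can be moved into the vacuole. The tau class (GSTU) and the phi class (GSTF) are the large plant classes and are known for detoxifying herbicides and for responding to many stresses. The zeta class (GSTZ) acts as maleylacetoacetate isomerase in the breakdown of tyrosine. The class of each gene here is taken from its symbol or synonym and was not checked by sequence. Peroxiredoxins reduce peroxides through a reactive cysteine, and the 1-Cys type of cereals is known from the embryo and aleurone of the seed.

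Both groups were Oryza sativa cv Nipponbare, germinated from bleach-sterilized seeds for 4 days in the dark at 28 °C, and RNA was hybridised to the Affymetrix Rice Genome array. Anoxic seeds (2 arrays) germinated in an oxygen-free work station under N2 mixed with H2 at 90 to 10, and aerobic seeds (2 arrays), which the labels call the control, in air. Aerobic coleoptiles were freed of their primary leaf, whereas per the labels anoxic seedlings form none, so leaf removal cannot be told apart from the oxygen supply. The labels do not say whether replicates came from separate cultures, so any p-value below rests on array-to-array spread that may be technical.

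Each deposited value is 1 normalized intensity per probe set and array; levels below are log2(intensity + 1), and a difference is the anoxic minus the aerobic mean on that scale, so that changes of dim probe sets come out too small. Over the 18826 tested probe sets, Pearson's r was 0.968 for the anoxic pair and 0.973 for the aerobic pair, against 0.687 to 0.698 for arrays of different groups (probe sets are not independent of each other). The anoxia label had a direct check in PDC1, a pyruvate decarboxylase of ethanol fermentation, which read 11.98 and 12.23 on the anoxic arrays, against 3.24 and 2.89 on the aerobic arrays. Of the other fermentation genes with a probe set, PDC2 and Adh2 were higher in anoxia by 1.82 and 4.83. PDC3 was below background on every array. Of 7 green leaf marker genes with a probe set, 4 were at or below background on every array, among them RBCS1 and LHCP. OsrbcS, on a probe set whose probes may cross-hybridise, read 7.47 and 7.27 in anoxic and 7.42 and 7.21 in aerobic coleoptiles. Of the 3 tested leaf markers, OsPSAG, a photosystem I subunit gene, fell, with 6.03 and 5.88 on the anoxic arrays, against 7.33 and 7.38 on the aerobic arrays (limma, adjusted p = 0.00666), and PSAH, with a difference of 0.47, was not called. Background here is 4.05, the highest group mean among 64 probe sets for reporter genes of transgenic work. No marker list for the coleoptile itself was used. In RNA from a whole organ, fewer cells that use a gene and less RNA per cell cannot be told apart.

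The tau genes that the name rule matched were high in opposite conditions. GSTU1 read 12.16 and 12.37 on the anoxic arrays, against 6.27 and 5.77 on the aerobic arrays. It was bright in both anoxic samples and moderate in both aerobic samples, and the groups lay 5.88 log2 units apart at their nearest arrays. The difference was 6.24 ± 0.25 (SE, n = 2 each), or 75.8-fold, and 52 of the 18826 tested probe sets had a larger rise. The probe set of GSTU1 carries the suffix that Affymetrix gives to sets whose probes match more than 1 transcript, so its reading may include a near-identical gene.

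GSTU6 ran the other way. Its bright probe set read 7.03 and 7.22 on the anoxic arrays, against 11.49 and 11.86 on the aerobic arrays. Both aerobic samples were far above both anoxic samples, with no overlap. The difference was -4.55 ± 0.21 (SE), or 23.4-fold lower in anoxia, and 245 tested probe sets had a larger fall. In anoxia GSTU6 remained above background on both arrays. A second probe set assigned to GSTU6 read 2.78 on both anoxic arrays and 2.78 and 2.76 on the aerobic arrays, below background throughout, so it gave no second measurement of the gene.

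Both phi genes that the name rule matched were lower in anoxia. GSTF2 read 9.30 and 9.39 on the anoxic arrays, against 12.17 and 12.32 on the aerobic arrays. The replicates lay close together and the groups did not overlap, with a difference of -2.90 ± 0.17 (SE), or 7.44-fold lower. GSTF1 was dim: it read 2.66 and 2.72 on the anoxic arrays, against 4.57 and 4.78 on the aerobic arrays. It was thus above background on both aerobic arrays and below it on both anoxic arrays, which makes it at least 1.54-fold lower in anoxia. Its mean over the 4 arrays, 3.68, missed the minimum of 4 that a probe set needed to be tested.

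The genes named as zeta differed from each other. GSTZ5 read 4.96 and 4.07 on the anoxic arrays, against 6.72 and 7.61 on the aerobic arrays. The groups did not overlap, yet replicates differed by 0.89 in anoxic and 0.88 in aerobic coleoptiles, more than 91.6% and 93.2% of the tested probe sets did. The difference was -2.65 ± 0.46 (SE), or 6.29-fold lower in anoxia, with anoxic replicate 2 next to background, and it was -2.06 with a pseudocount of 16. GSTZ3 was nearly level: its bright probe set read 8.03 and 8.07 on the anoxic arrays, against 7.56 and 7.54 on the aerobic arrays. That is a difference of 0.50 ± 0.16 (SE), or 1.42-fold, between groups that did not overlap. This probe set carries the suffix for probes that may cross-hybridise. The other probe set of GSTZ3 read 3.57 and 3.81 on the anoxic arrays, against 3.61 and 3.53 on the aerobic arrays, all below background.

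R1C-Prx, the 1-Cys peroxiredoxin that the name rule matched, was high in anoxia. It read 9.51 and 8.44 on the anoxic arrays, against 4.32 and 3.98 on the aerobic arrays. Both anoxic samples were far above both aerobic samples, of which only replicate 1 was above background. The difference was 4.82 ± 0.41 (SE), or 28.2-fold, a size that rests on aerobic readings at the background: with a pseudocount of 16 it was 3.98. The anoxic replicates differed by 1.07, more than 94.7% of tested probe sets did. The size of the anoxic level is thus less certain than for GSTU1, whose anoxic replicates differed by 0.21. The gene next to R1C-Prx, LOC4344046, was also high in anoxia, and whether their probe sets share signal was not tested.

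**Figure D1:**
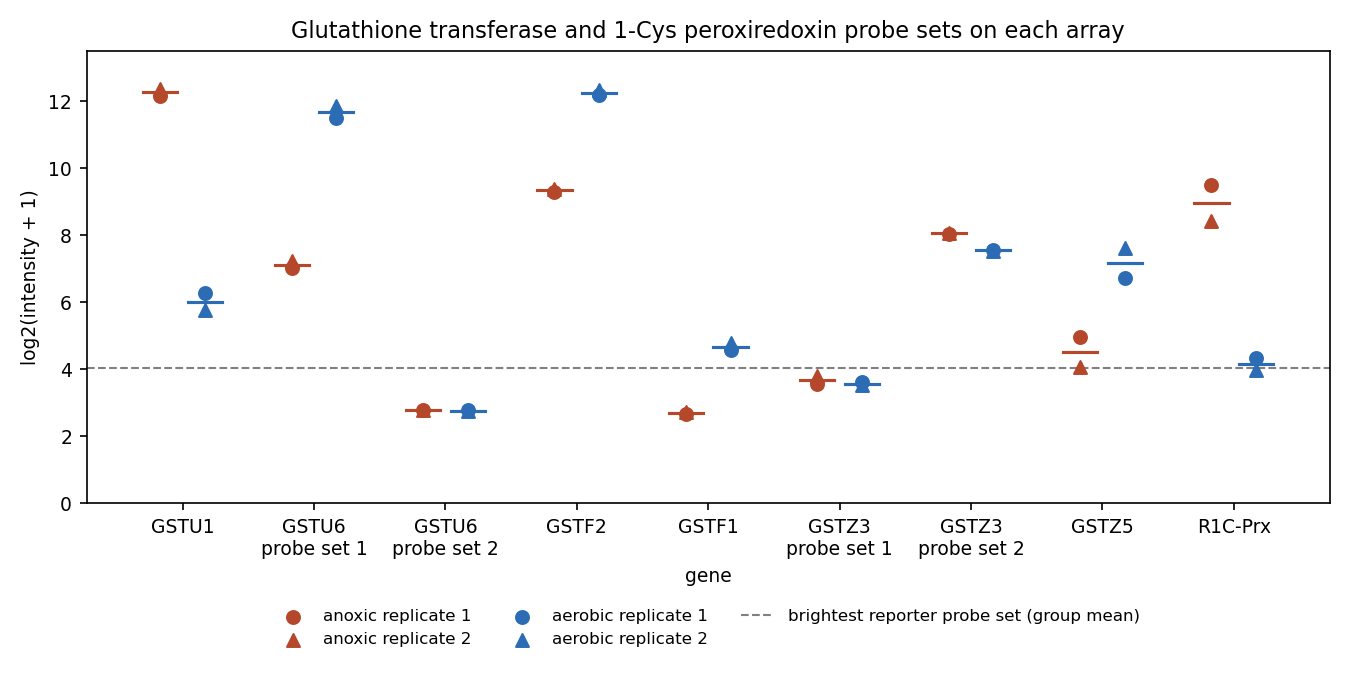
Level of each of the 9 probe sets on each array, as log2(intensity + 1) on the vertical axis, with anoxic arrays left and aerobic arrays right for each gene; circles are replicate 1, triangles replicate 2, short bars the group means, and the dashed line is the background of 4.05. GSTU1 and R1C-Prx lie higher in anoxia, GSTU6, GSTF2, GSTF1 and GSTZ5 lie higher in air, and the second GSTU6 and the first GSTZ3 probe sets stay below the line in both groups.

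Of the 9 probe sets, 6 reached the mean level for testing, 1 for each gene but GSTF1. In limma's fit over the whole array, 5 of the 6 genes passed the call rule, adjusted p under 0.05 and a change of at least 1 log2 unit, against 33.9% of the 12291 genes tested and 32.1% of the tested probe sets. GSTU1 and R1C-Prx passed as higher (15.9% of all genes tested) and GSTU6, GSTF2 and GSTZ5 as lower (18.0%). GSTZ3 did not pass. Groups did not overlap for any of the 6 genes, which also held for 77.9% of all genes tested. The median difference of the 6 was -1.08, beside 0.03 over all tested genes, and the median size of the difference regardless of sign was 3.72, beside 0.71. Since the genes were chosen with this contrast known, nothing is read from these shares.

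**Figure D2:**
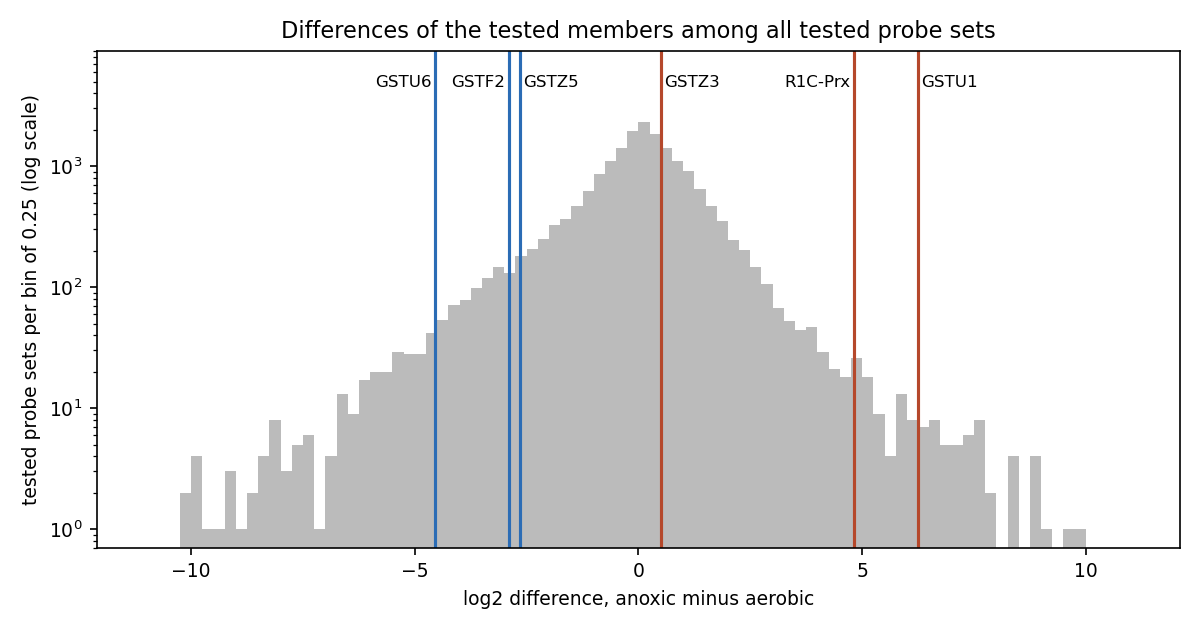
Histogram of the log2 difference, anoxic minus aerobic, over 18826 tested probe sets in bins of 0.25, with a logarithmic vertical axis; vertical lines mark the 6 tested genes. GSTU1 at 6.24 and R1C-Prx at 4.82 lie in the upper tail, GSTU6 at -4.55 in the lower tail, and GSTZ3 at 0.50 near the middle.

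Leaving out each array in turn describes how far single arrays set these values, and is no test of genes chosen on this contrast. GSTU1 then differed by 5.99 to 6.50, GSTU6 by -4.73 to -4.37 and GSTF2 by -2.97 to -2.82, each past the call rule. R1C-Prx stayed higher but lost its call without aerobic replicate 1 (4.99) or aerobic replicate 2 (4.65), and its difference was 4.29 without anoxic replicate 1 and 5.35 without anoxic replicate 2. GSTZ5 stayed lower but lost its call when aerobic replicate 1 (-3.10), aerobic replicate 2 (-2.21) or anoxic replicate 2 (-2.21) was left out. With 1 array left in a group, that array is assumed to vary like the pair of the other group.

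**Figure D3:**
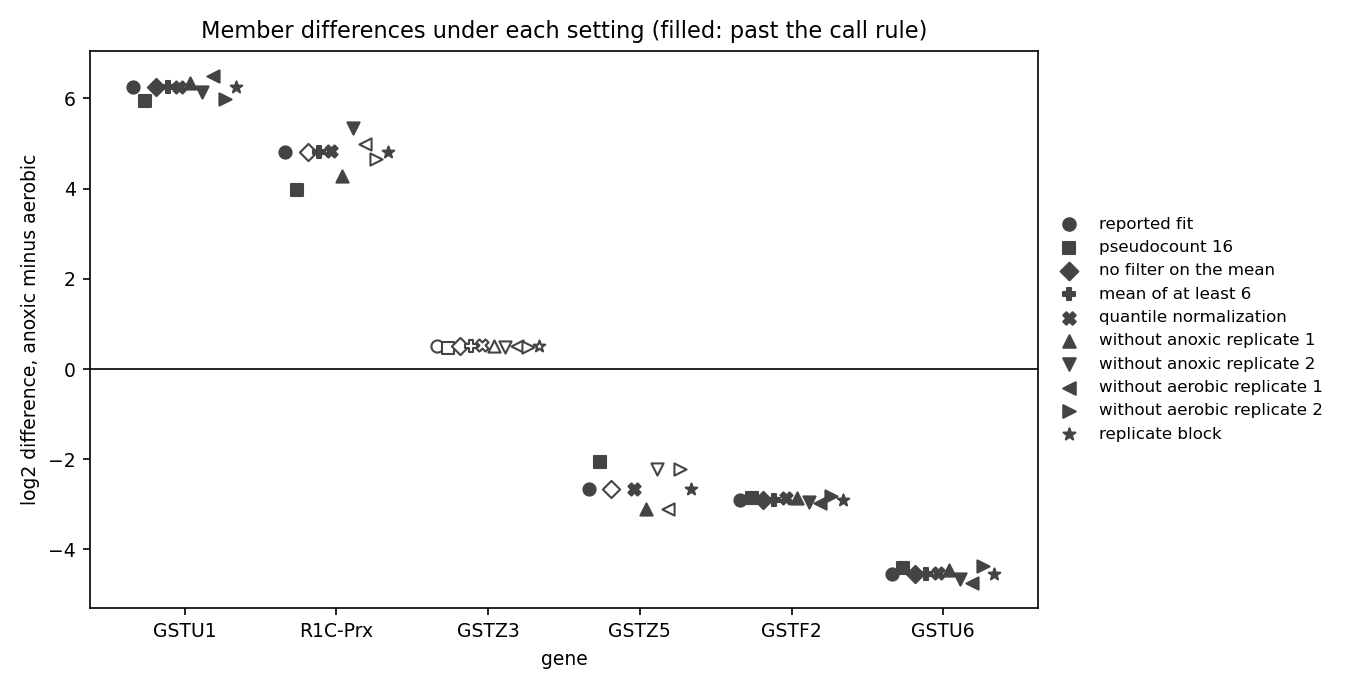
Log2 difference, anoxic minus aerobic, of the 6 tested genes under the reported fit and 9 other settings; filled symbols pass the call rule and open symbols do not. Signs do not change under any setting shown, while R1C-Prx and GSTZ5 have open symbols in some leave-out fits and with no filter on the mean.

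Because R1C-Prx belongs to a type known from seed tissue, seed storage and maturation markers are given beside it. Of 19 such genes with a probe set, 9 were at or below background on every array, including glutelin, prolamin and RAG2 genes. Of 7 that were tested, RAB21, a dehydrin that responds to abscisic acid, rose: it read 12.26 and 11.64 on the anoxic arrays, against 10.69 and 10.28 on the aerobic arrays (limma, adjusted p = 0.0235). GLB, a seed globulin gene, fell, with 6.79 and 6.77 on the anoxic arrays, against 8.54 and 8.38 on the aerobic arrays (limma, adjusted p = 0.00457). The RAB21 call was lost without aerobic replicate 1 (a difference of 1.67), aerobic replicate 2 (1.25) or anoxic replicate 1 (1.15). The GLB call was lost without aerobic replicate 1 (-1.59). LEA19, a late embryogenesis abundant protein gene, read 9.30 and 8.08 in anoxic and 9.94 and 9.39 in aerobic coleoptiles and was not called. The probe sets of RAB21 and LEA19 carry the suffix for probes that match more than 1 transcript. The summed intensity of the 19 genes was 3986 to 6290 on anoxic and 2814 to 3530 on aerobic arrays. RAB21 made up most of the anoxic sum: the other 18 genes summed to 802 to 1378 on anoxic and 1570 to 1874 on aerobic arrays, the opposite order (a sum without RAB21 was added after the data had been seen). LEA19, GluTR and GLB were the brightest of these 18. Named after its values were seen, RAB16B read 5.61 and 6.09 on the anoxic arrays, against 5.20 and 4.25 on the aerobic arrays, and was not called. EM, rab25 and RAB16C, too dim to be tested, were also higher in anoxia, by 0.81, 0.70 and 0.42. RAB16D and GLUA-2 differed by -0.09 and -0.06. The name pattern also took in GluTR and the MADS-box gene MADS3, which are no seed markers. The part of seed transcripts in the level of R1C-Prx was not tested.

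Other genes around glutathione were gathered by symbol into lists, and 43 of them were tested. Of these 6 rose and 12 fell in anoxic coleoptiles, or 14.0% and 27.9%, beside 15.9% and 18.0% of all genes tested. These counts include genes that entered by name only: AGPS2, a starch synthesis gene among the rises, and OsTrx1, a SET-domain gene that was not called. GRC2, a glutathione reductase, which returns oxidised glutathione to its reduced form, fell by 2.19 ± 0.18 on the log2 scale (SE; limma, adjusted p = 0.00301). GLYI-11, a glyoxalase I, which uses glutathione to remove methylglyoxal, read 8.73 and 8.95 on the anoxic arrays, against 11.79 and 11.64 on the aerobic arrays (limma, adjusted p = 0.0019). ABCC13, of the transporter family that includes vacuolar pumps for glutathione conjugates, rose by 1.15 ± 0.21 (SE; limma, adjusted p = 0.017). GRC2, GLYI-11 and ABCC13 were each the 1 tested gene of their list. Names for glutathione peroxidases and for further glutathione transferases matched no gene, so genes of these kinds without such a symbol are not analysed here.

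The other peroxiredoxins that were matched by name lay lower in anoxia where R1C-Prx lay higher. Peroxiredoxin genes without such a name, of the 1-Cys type or another, are not covered. All 4 tested genes of this list fell, beside 18.0% of all genes tested. PRXIIE-1 had a difference of -2.44 ± 0.17 and PRXIIC of -2.28 ± 0.16 (SE; limma, adjusted p = 0.00224 and 0.00229). Named after their values were seen, PRXIIF was at least 4.19-fold lower (a difference of -2.19, or -1.48 with a pseudocount of 16) and bas1, a 2-Cys peroxiredoxin, differed by -1.30 ± 0.18. PRXIIC, on a probe set whose probes match more than 1 transcript, read 8.76 and 8.82 on the anoxic arrays, against 11.11 and 11.02 on the aerobic arrays. The fifth, PRXIIE-2, was below background on every array. The median of the 4 was -2.23, beside 0.03 over all genes tested. The bas1 call was lost without aerobic replicate 1 (adjusted p = 0.0727) or aerobic replicate 2 (0.0764).

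In the ascorbate-glutathione cycle, which removes hydrogen peroxide with ascorbate and restores it with glutathione, 1 of 8 tested genes fell and 0 rose. That is 12.5% lower, beside 18.0% of all genes tested. The gene that fell was APX4, an ascorbate peroxidase, with a difference of -1.33 ± 0.20 (SE; limma, adjusted p = 0.0106). The list median was -0.36, and APX1 and APX2 differed by 0.06 and -0.05. Of 16 tested thioredoxin and thioredoxin reductase genes, whose proteins pass electrons to peroxiredoxins and other targets, 1 rose and 2 fell, with a median of -0.12. These are 6.25% and 12.5%, beside 15.9% and 18.0% of all genes tested. OsTrxm5, below background in air, rose at least 2.91-fold (limma, adjusted p = 0.016), on a probe set whose probes may cross-hybridise, and its difference of 2.34 was 1.38 with a pseudocount of 16. OsTrx01 and OsTrxy fell, with differences of -2.08 ± 0.23 and -2.01 ± 0.39 (SE; limma, adjusted p = 0.00524 and 0.0206). OsTrx1 entered this list by name only and is a SET-domain gene, SDG723.

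Sulfate assimilation and cysteine synthesis, which supply the cysteine of glutathione, went both ways: 4 of 12 tested genes rose and 3 fell, with a median of 0.37. These are 33.3% and 25%, beside 15.9% and 18.0% of all genes tested. SAT1 and SAT2, serine acetyltransferases that make the precursor of cysteine, rose by 3.39 ± 0.54 and 2.99 ± 0.32 log2 units (SE; limma, adjusted p = 0.0123 and 0.00497). SAT2 read 7.92 and 8.10 on the anoxic arrays, against 4.63 and 5.41 on the aerobic arrays. SAT4, named after its value was seen, differed by -2.59 ± 0.73 (SE) and was not called (limma, adjusted p = 0.0518). It read 6.83 and 4.77 on the anoxic arrays, on a probe set whose probes match more than 1 transcript. With a pseudocount of 16, a mean of at least 6 or quantile normalization SAT4 was called lower. APR1, listed also as an APR-like gene, fell by 3.73 ± 0.58 on the log2 scale (SE; limma, adjusted p = 0.0119). Its anoxic arrays lay apart, at 5.39 and 3.75, the second below background, so the size of the fall is uncertain: it was -2.91 without anoxic replicate 2 and -3.04 with a pseudocount of 16, and without anoxic replicate 1 (-4.55) it rests on the reading below background alone. The probe sets of SAT1 and APR1 carry suffixes for probes that may cross-hybridise or match more than 1 transcript. The cysteine synthase gene rcs1 fell by 1.61 ± 0.30 (SE; limma, adjusted p = 0.0177), while rcs3, another cysteine synthase gene named after its value was seen, rose by 1.25 ± 0.21. AGPS2, a starch synthesis gene that matched through its synonym, was among the 4 rises, and SAT5, also a serine acetyltransferase gene named after its value was seen, was among the falls at -1.05 ± 0.28. The call of rcs3 was lost without any 1 of the 4 arrays, that of SAT5 likewise, and that of AGPS2 without either aerobic array.

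Among the 13 genes that the naming rule took from these lists, the calls of GRC2, GLYI-11, PRXIIE-1, PRXIIC and SAT2 held without any 1 array. Without aerobic replicate 1 APX4, OsTrx01, OsTrxm5, ABCC13, SAT1, APR1 and rcs1 lost theirs, with limma's adjusted p between 0.0505 and 0.128. With aerobic replicate 2 left out, these 7 and OsTrxy did (0.0577 to 0.126). Without anoxic replicate 1 OsTrxy, ABCC13, SAT1 and rcs1 did (0.0577 to 0.114), and without anoxic replicate 2 OsTrxy did (0.0933).

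**Figure D4:**
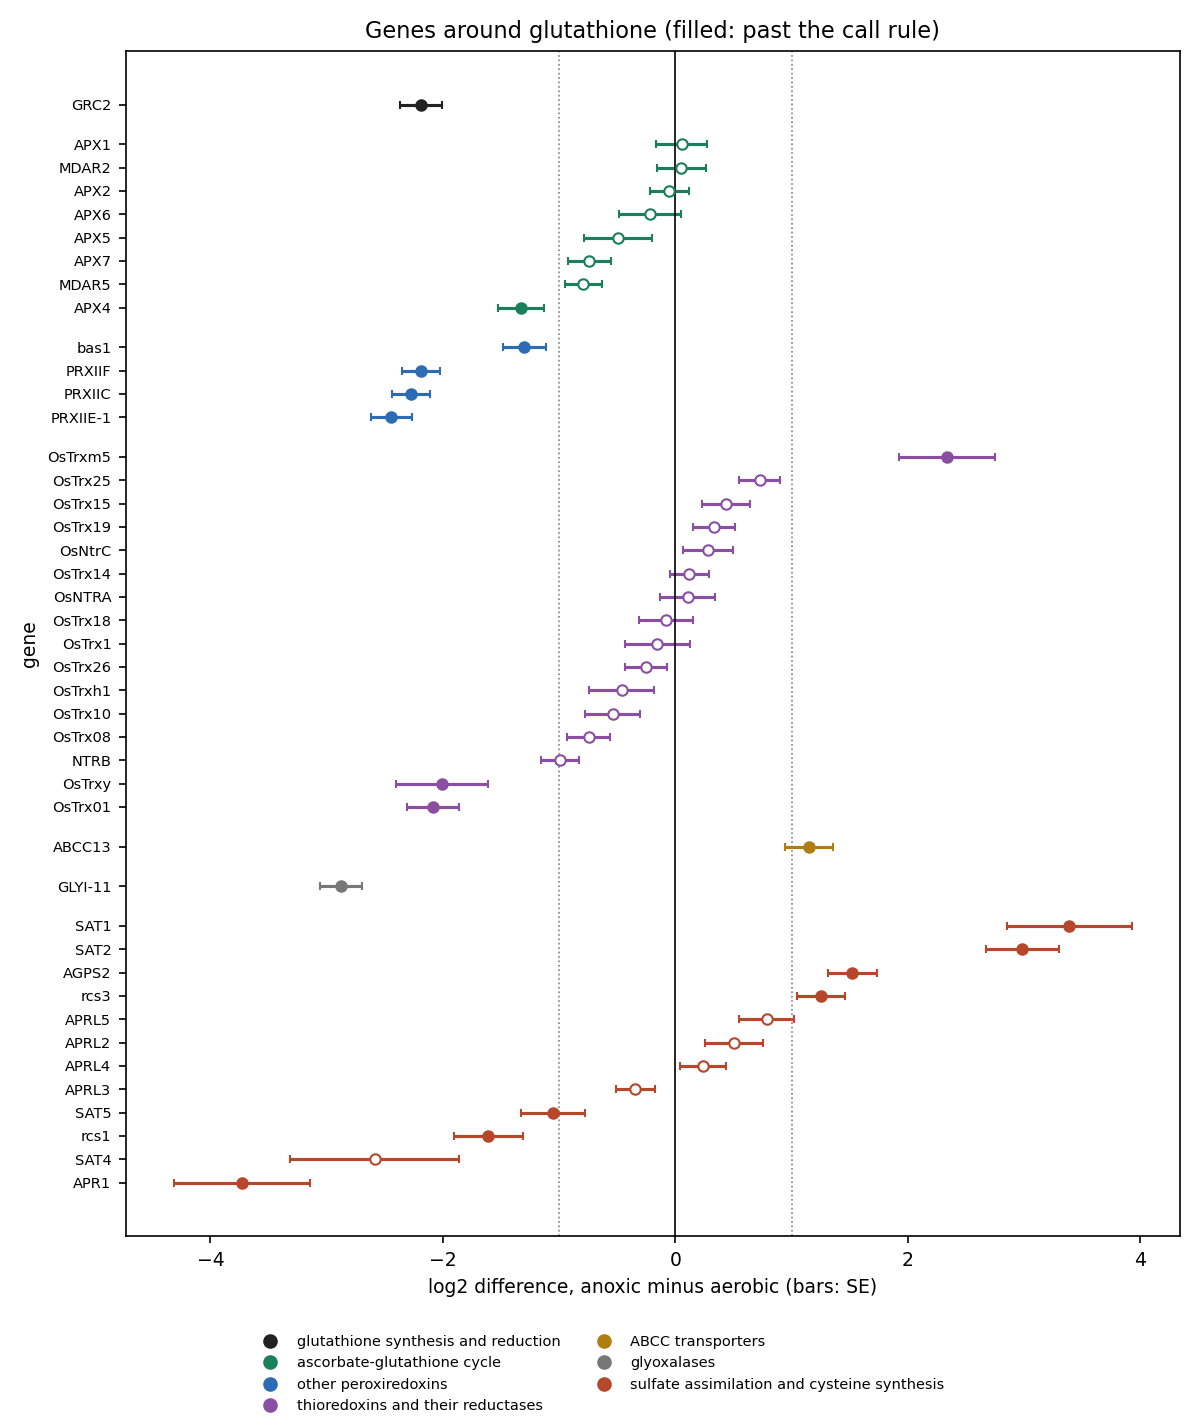
Log2 difference, anoxic minus aerobic, of the 43 tested genes in the lists around glutathione, with SE bars (n = 2 arrays in each group); filled points pass the call rule and dotted lines mark a difference of 1 in either direction. All 4 tested peroxiredoxins of the list lie left of -1, and most thioredoxins and ascorbate cycle genes lie between the dotted lines. The genes of the sulfur list spread from APR1 at -3.73 to SAT1 at 3.39.

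The genes whose readings over the 4 arrays lay nearest to 3 of the members were found by Euclidean distance of log2 levels among 1825 other tested genes with a symbol, each on the scale of its own probe set. Nearest to GSTU1 were cap2 (distance 0.94), the haemoglobin gene NSHB2 (1.31) and the copper transporter gene COPT1 (1.59). COPT1 read 11.09 and 11.35 in anoxic and 6.71 and 6.17 in aerobic coleoptiles. Nearest to GSTU6 were OPR10 (1.00), JAZ13 (1.20), a repressor of the jasmonate response, and CRSH2 (1.61). JAZ13 read 8.19 and 7.51 in anoxic and 11.44 and 11.90 in aerobic coleoptiles. Nearest to R1C-Prx were OsSAP5 (0.78), LOC4338051, listed as both ZIP3 and ZIP7 (1.40), and KRP6 (1.41). OsSAP5 read 9.67 and 9.13 in anoxic and 4.34 and 4.31 in aerobic coleoptiles.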

How the data were processed

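The authors deposited linear intensities, 1 for every probe set of an array, made with GCRMA per the submitters' processing notes; the sources used here give neither its version nor its settings. Values ran from 2.25 to 18694, and array medians from 7.36 to 7.55, so no scaling was added. The log2 of the deposited intensity plus a pseudocount of 1 was taken. Of 57381 probe sets, 187 controls were left out; 22436 had 1 gene in the platform annotation, 95 several and 34663 none. Symbols came from the RefSeq table of assembly ASM3414082v1. A probe set was tested, if its levels averaged 4 or more over all 4 arrays, with limma 3.58.1 in R 4.3.3 (lmFit, eBayes, 2-sided, 2 residual degrees of freedom, Benjamini-Hochberg over 18826). Only the fit was tried on simulated log2 values with planted changes, not the filter, the pseudocount or the matching of genes. An exact permutation test of 2 against 2 arrays cannot go below p = 0.333. A gene was read by its brightest tested probe set.

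Where no array of the dimmer group exceeded 4.05, the fold is a bound against that level. Named genes were all members and, per list, up to 2 called rises and 2 called falls with the largest differences whose arrays did not overlap, or else the smallest p. The members and lists were chosen with earlier results of these data known. Alternatives were a pseudocount of 16, no filter, a mean of at least 6, quantile normalization, each array left out, the replicate number as a block, and a gene's tested probe sets averaged.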

Additional observations from a re-analysis of the deposited data

How the results depend on the processing

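Each member tested under an alternative kept its sign there. Among the list genes, 2 neighbours and 2 seed markers recomputed gene by gene, no called gene changed sign; other genes, the crossed block and the averaging of probe sets were followed as counts only. With a pseudocount of 16 R1C-Prx differed by 3.98 and GSTZ5 by -2.06, and 2416 probe sets were called higher over the array. With no filter on the mean, more dim probe sets entered the fit: calls over the array went down to 738 higher and 971 lower, against 3015 and 3021 in the reported fit, the members called higher to 1 (R1C-Prx lost its call, as did GSTZ5, while GSTF1 passed the call rule, with both anoxic readings below background, so that its size stays a bound), and the pathway genes to 0 higher and 5 lower, against 6 and 12. With a mean of at least 6, which tests fewer probe sets, 1934 and 1895 were called, and GSTZ5 was not tested. Quantile normalization moved no member's call. Leaving out 1 array, the calls over the array ranged from 692 to 2092 higher and 1186 to 2262 lower, the members from 1 to 2 higher and 2 to 3 lower, and the pathway genes from 1 to 5 higher and 5 to 10 lower. The titles number the replicates in both groups, but nothing in the labels ties equal numbers together, and the deviations of equally numbered arrays from their group means correlated with r = -0.14 across probe sets; with the replicate block 2761 probe sets were called higher and 2795 lower, and the members' calls stayed at 2 and 3. A crossed replicate block, chosen after seeing the data, called 3243 and 3224. Each tested member has 1 tested probe set, so averaging probe sets changed nothing. A planned search of promoter motifs was not run. Signal limits GSTF1, GSTZ5 in anoxia and R1C-Prx in air, which lie near background.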

Other observations

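The nearest protein-coding genes of the members in the RefSeq gene order, 3 on each side, were looked up after the data had been seen. Of these 42 neighbours 19 were tested, of which 5 rose and 6 fell in anoxic coleoptiles, beside 15.9% and 18.0% of all genes tested. The gene next to R1C-Prx, LOC4344046, which the tables do not name further, was also high in anoxia; whether the genes resemble each other in sequence, so that their probe sets could share signal, was not tested. It read 11.50 and 10.87 on the anoxic arrays, against 5.56 and 6.68 on the aerobic arrays, a difference of 5.06 ± 0.46 (SE; limma, adjusted p = 0.0036). Its call held without any 1 array (differences from 4.51 to 5.62) but not with no filter on the mean (adjusted p = 0.0800). On the other side of R1C-Prx, LOC4344044 read 6.93 and 6.30 on the anoxic arrays, against 6.78 and 6.31 on the aerobic arrays. The next gene beyond LOC4344046, LOC4344047, read 5.12 and 5.22 in anoxic and 7.42 and 7.22 in aerobic coleoptiles, so the high anoxic level was not shared by the tested genes on either side of the pair.

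Next to GSTU6, LOC4349210 fell with it: it read 6.47 and 5.77 on the anoxic arrays, against 8.30 and 8.77 on the aerobic arrays (-2.42 ± 0.33, SE; limma, adjusted p = 0.00856). That call was lost without aerobic replicate 1 (adjusted p = 0.068), without aerobic replicate 2 (0.0818) and with no filter on the mean (0.122). Beside GSTU1, which was high in anoxia, the tested neighbours did not rise. LOC4334346, listed as PCF6, read 3.62 and 3.34 on the anoxic arrays, both below background, against 4.94 and 4.54 on the aerobic arrays. It was called lower, with a fall of at least 1.61-fold. LOC4334349, listed as GLO1, read 9.22 and 8.94 on the anoxic arrays, against 8.78 and 9.13 on the aerobic arrays.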
